A study of Rattus norvegicus with 2 samples.

Results

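Target genes of hypoxia-inducible factor (HIF) were examined in IEC6, a rat cell line labelled as epithelium of the small intestine. The cells had been exposed for 60 min to Na2S3 (sodium trisulfide, a polysulfide salt) or to water. The set holds 10 genes of 17761 named on the arrays: Vegfa, Adm, Ankrd37, Hif1a, Egln1, Egln3, Bnip3, Ndrg1, Kdm3a and P4ha1. They were picked by name with the ratios of these same arrays in view, so the ratios of the members describe them and support nothing further. Cells of both groups were dish cultures kept in low-serum medium during the exposure. One group received Na2S3 at 100 µM as the sample label and design text state, although the treatment protocol gives 100 mM, and the other received H2O. Each group is 1 sample on 1 Agilent single-colour array of the same slide, so there are no replicates, no difference below has a replicate check and no p-value is given. "Higher" and "lower" describe these 2 arrays, in which RNA per cell and the number of expressing cells cannot be told apart.

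HIF is a transcription factor made of an alpha subunit and the subunit ARNT. In oxygenated cells prolyl hydroxylases of the EGLN family mark the alpha subunit, and the von Hippel-Lindau protein then sends it for degradation, so that much of HIF control acts on the protein rather than on its mRNA. When hydroxylation stops, HIF binds short DNA motifs near genes for blood vessel growth, glycolysis, mitophagy and collagen modification. In the intestine, where the epithelium lies next to a lumen poor in oxygen, HIF targets are known for roles in barrier function.

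Vegfa was 8.87-fold higher in the Na2S3 array and Adm 2.46-fold higher, whereas Ankrd37 was 5.51-fold lower. At their brightest probes the other 7 members all lay within 1.5-fold, with log2 ratios of Na2S3 over H2O from -0.29 to 0.34. Thus 2 of 10 members were at least 2-fold higher, where 0.951% of all 10938 measured genes were, and 1 of 10 was at least 2-fold lower, where 0.503% of all measured genes were. Because the members were chosen from this contrast, nothing is read from these shares. The median log2 ratio was 0.17 over the 10 members and 0.16 over the 7 without Vegfa, Adm and Ankrd37, beside -0.02 over all measured genes. The members nearest to the 2-fold line were Adm, past it at 1.30, and P4ha1, short of it at 0.34.

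Signals below are background-subtracted intensity units of the scanner software. Each ratio was taken after each array had been scaled to its 75th percentile over 45598 non-control probes, which was 478 units in the Na2S3 array and 413 in the H2O array. A probe counts as measured when it was well above background on both arrays. The 10 members have 14 probes and 37 spots per array, and 13 of the 14 probes were measured. Errors given as spot error come from the spread of ratios among repeat spots of other probes at similar signal, divided by the square root of the number of spots. They cover variation within an array and not variation between cultures. Similar signal means the mean log2 signal of the 2 arrays, so a probe dim in 1 array gets the error of a brighter bin. At each member probe the scanner software's own error of a log2 ratio was larger. It ran from 0.20 (P4ha1) to 0.43 (a Vegfa probe).

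The oligonucleotides that carry the results for the 3 members past 2-fold are shown first, because each reads only a short stretch of its transcript. They are 60 bases long and are written 5′ to 3′ with the coordinates that the files give for rn4, all on the plus strand. Vegfa was read by an upstream probe at chr9:10528551-10528610, a middle probe at chr9:10531934-10531993 and a downstream probe at chr9:10535933-10535992. Of the downstream Vegfa probe and of the Adm probe the first 30 bases are shown. The Adm probe lay at chr1:168382310-168382369 and the Ankrd37 probe at chr16:49552226-49552285.
Vegfa upstream probe: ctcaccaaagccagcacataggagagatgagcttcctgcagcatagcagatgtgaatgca
Vegfa middle probe: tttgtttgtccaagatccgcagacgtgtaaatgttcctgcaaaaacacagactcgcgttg
Vegfa downstream probe, first 30 bases: catcacgtctttgtctctagagcagttttc
Adm probe, first 30 bases: gtggagagcgcctgattaccgcctgtggat
Ankrd37 probe: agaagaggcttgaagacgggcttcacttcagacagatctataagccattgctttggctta

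Among the secreted factors, Vegfa encodes the main growth factor for blood vessels. Its downstream probe, spotted 2 times, had signals of 4582 and 5378 in the Na2S3 array, against 469.8 and 499.8 in the H2O array. Both Na2S3 spots were far above both H2O spots, and the spot-wise log2 ratios were 3.08 and 3.22. The probe's log2 ratio was 3.15 with a spot error of 0.06, which placed Vegfa in rank 7 from the highest of 10938 measured genes. The upstream probe, with 1 spot, had a signal of 714 in the Na2S3 array, against 92.7 in the H2O array. Its log2 ratio was 2.74 with a spot error of 0.10, or 0.19 in the bin of its H2O signal. The middle probe read 116 in the Na2S3 array and 16.2 in the H2O array, where it was not well above background. Against the lowest signal well above background in the H2O array, the middle probe's scaled signal with Na2S3 was 5.50-fold higher. That value allows for no error, and it is not a lower limit. The spot error of the middle probe was 0.34. All 3 Vegfa probes were thus higher in the Na2S3 array, though they are read from the same pair of RNA samples and are not replicates of the exposure. With normexp background correction, which compresses ratios of dim spots, the log2 ratios were 2.99 downstream, 2.12 upstream and 0.945 at the middle probe.

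Adm encodes adrenomedullin, a secreted peptide that widens vessels and acts on epithelial and endothelial cells. Its probe was spotted 10 times, with signals from 672 to 809 (median 759.9) in the Na2S3 array, against 235 to 292 (median 266) in the H2O array. The lowest Na2S3 spot was above the highest H2O spot. The 10 spot-wise log2 ratios ran from 1.096 to 1.44 with an SD of 0.11, and their mean was 1.30. Adm stood in rank 57 from the highest of the measured genes. It is the member whose ratio rests on the most spots, and with normexp it stood at 1.12.

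Ankrd37 encodes an ankyrin repeat protein whose gene is induced by HIF under hypoxia in human cells. Its only probe had 1 spot, with a signal of 62.5 in the Na2S3 array, against 298 in the H2O array. It was well above background on both arrays and carried no outlier flag on either. The log2 ratio was -2.46, the lowest of all 10938 measured genes. Its spot error was 0.16, taken at the mean signal of the 2 arrays. In the dimmest bin, where its Na2S3 signal alone would fall, the spread was 0.34. The scanner software's own error was 0.23. With normexp the log2 ratio was -1.65. Among 955 genes with a mean signal of 128 to 256, as for Ankrd37, the log2 ratios had an SD of 0.41, and 14 genes passed 2-fold upward and 9 downward. No second probe or spot of Ankrd37 was on the array to compare its ratio with.

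**Figure D1:**
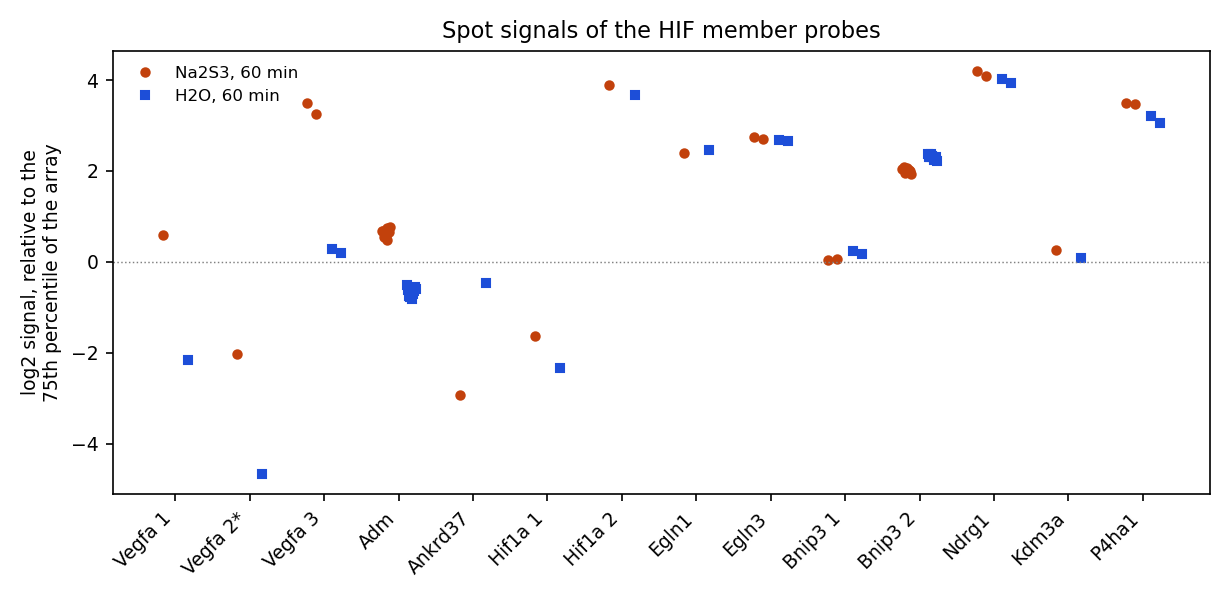
Signal of each spot of the 14 member probes, as log2 relative to the array's 75th percentile (vertical axis), in the Na2S3 array (circles, left) and the H2O array (squares, right). Probes of 1 gene are numbered in the direction of transcription, the asterisk marks the Vegfa probe not well above background in the H2O array, and levels are comparable within a probe but not between probes. The 10 Adm spots and the 2 spots of the downstream Vegfa probe separate fully between the arrays, and the Ankrd37 spot is lower in the Na2S3 array.

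Hif1a encodes the oxygen-regulated alpha subunit itself. Its probe near the transcript end, at chr6:96463815-96463874 in rn4, had a signal of 7105 in the Na2S3 array, against 5269.7 in the H2O array. The log2 ratio there was 0.22 with a spot error of 0.07. A second, dimmer probe at chr6:96462636-96462695 had 154 in the Na2S3 array, against 82.2 in the H2O array, a log2 ratio of 0.70 with a spot error of 0.19. Both Hif1a probes were higher in the Na2S3 array, by amounts that differed by 0.47 on the log2 scale. Over 2999 genes, single probes had a pooled SD of 0.23 around the mean of their gene. A gap between probes spreads wider than that SD. With normexp the dimmer probe stood at 0.39 and the brighter at 0.23.

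The oxygen sensors were close to 0. Egln1 encodes the main prolyl hydroxylase that marks HIF alpha subunits and is itself a HIF target. It had a signal of 2508 in the Na2S3 array, against 2281 in the H2O array, and a log2 ratio of -0.07 with a spot error of 0.09. Egln3, which encodes a related hydroxylase that hypoxia strongly induces in many cells, had spots of 3099.97 and 3191 in the Na2S3 array, against 2619 and 2664 in the H2O array. Its log2 ratio was 0.04 with a spot error of 0.06. Neither ratio exceeded its spot error.

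Among the remaining effectors, P4ha1 encodes a catalytic subunit of the hydroxylase that acts on collagen proline. It had spots of 5275 and 5345 in the Na2S3 array, against 3460.1 and 3808 in the H2O array, and a log2 ratio of 0.34 with a spot error of 0.05. The Na2S3 spots were both above the H2O spots. Kdm3a, a histone demethylase gene, had 573 in the Na2S3 array, against 437 in the H2O array, a log2 ratio of 0.18 with a spot error of 0.10. Ndrg1, which encodes a stress-responsive cytoplasmic protein, had 8098 and 8779 in the Na2S3 array, against 6361 and 6752 in the H2O array. Its log2 ratio was 0.16 with a spot error of 0.05.

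Bnip3, whose product recruits mitochondria for autophagy, was the only one of the 10 members besides Ankrd37 and Egln1 with a negative ratio at its brightest probe. That probe, at chr1:198683030-198683089, had 9 usable spots from 1821 to 2029 (median 1942) in the Na2S3 array, against 1928 to 2133 (median 2049) in the H2O array. Before scaling the ranges overlapped, and after scaling all 9 spot-wise log2 ratios were negative, from -0.36 to -0.21, with a mean of -0.29. The other Bnip3 probe, placed by the files at chr1:198683944-198686065, a span of 2122 bases, had 492 and 499.6 in the Na2S3 array, against 468 and 489 in the H2O array. Its log2 ratio was -0.16 with a spot error of 0.07. The raw signals of that probe were thus higher in the Na2S3 array, and the negative ratio follows from the scaling, which removed a shift of 0.21 between the arrays. Spike-in scaling gave -0.25 for the brighter probe.

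**Figure D2:**
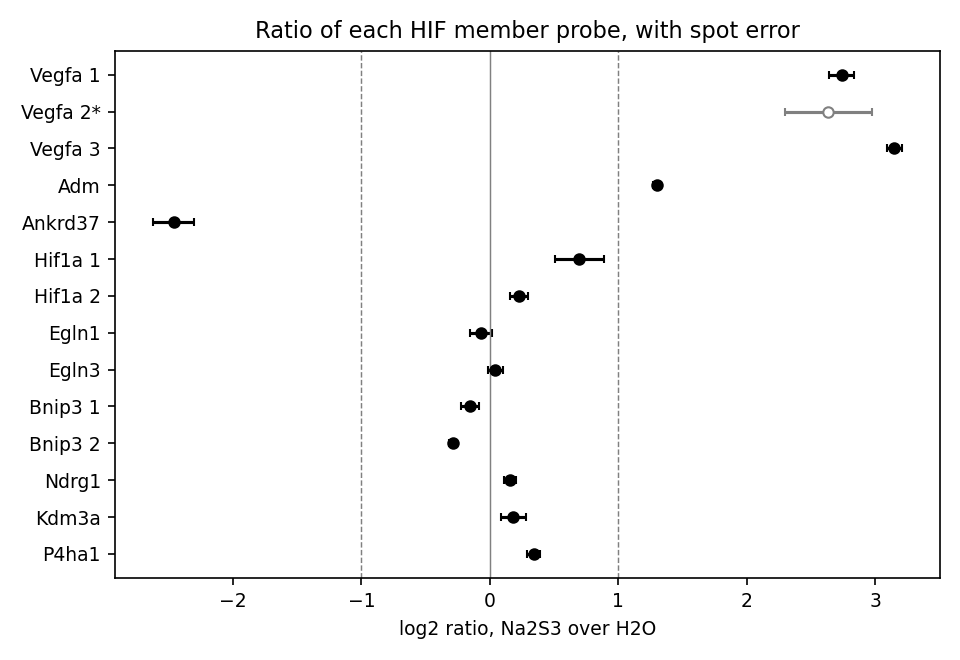
Log2 ratio of Na2S3 over H2O for each of the 14 member probes (horizontal axis), with bars for the spot error and dashed lines at 2-fold. The 3 Vegfa probes and Adm lie right of the upper line, Ankrd37 lies left of the lower one, and the open symbol is the Vegfa probe not well above background in the H2O array.

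The place of the members among all measured genes was also described. The 3 genes whose ratio over the 2 arrays was nearest to that of Vegfa were Nr4a1, an orphan nuclear receptor gene (3.18), Sesn2, a stress-induced inhibitor of mTORC1 (3.21), and Chac1, whose product degrades glutathione (2.93). Their signals in the H2O array were 24.9, 65.2 and 167, where the lowest signal well above background was 18.3. The 3 nearest to Ankrd37 were Phgr1 (-2.33), Ing3, which encodes a chromatin reader (-2.11), and Tap2, a peptide transporter gene (-2.11). With 1 pair of arrays this likeness is a nearness of ratio and nothing more.

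**Figure D3:**
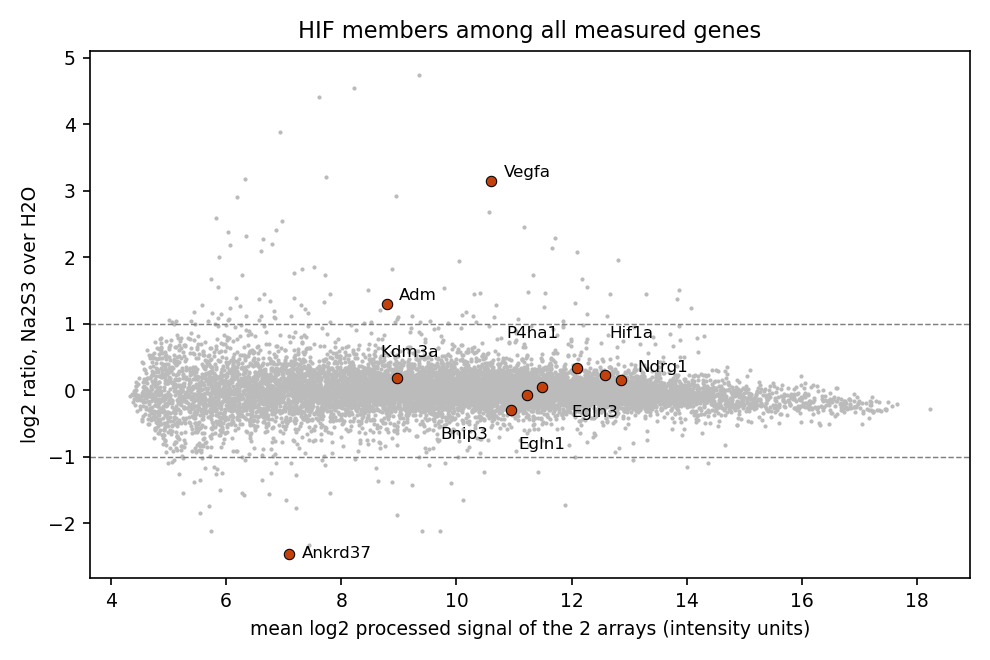
Log2 ratio of Na2S3 over H2O (vertical axis) against the mean log2 processed signal of the 2 arrays (horizontal axis) for 10938 measured genes (grey), with the 10 HIF members marked and dashed lines at 2-fold. Vegfa and Adm lie above the upper line, Ankrd37 is the lowest point, and the other 7 members lie in the band around 0.

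The genes that make, mark and degrade HIF had log2 ratios from -0.21 to 0.22 at their brightest probes, with a median of -0.05 over the 13 measured of 14 listed. At those probes 0 of 13 passed 1.5-fold either way, where 2.86% of all measured genes were at least 1.5-fold higher and 2.47% lower, so the count is near that of genes in general. The dimmer Hif1a probe described above lies past 1.5-fold. Beside Hif1a, the other alpha subunit gene measured, Epas1, had -0.18, and the partner subunit genes Arnt and Arnt2 had 0.05 and -0.11. A second Arnt probe gave 0.55. Egln2, the remaining prolyl hydroxylase gene, had 0.14 and Hif1an, which encodes the asparagine hydroxylase that blocks HIF activity, had 0.08. Vhl had 0.04, and its ligase partner genes Elob, Eloc, Cul2 and Rbx1 ran from -0.21 (Eloc) to -0.05 (Cul2). Second probes gave -0.41 for Rbx1, -0.35 for Elob and -0.05 for Eloc. Hif3a did not stand well above background on the Na2S3 or the H2O array.

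Of 10 listed ligands and receptors of the VEGF family, 8 were measured, with a median log2 ratio of 0.18. Vegfa itself, for which the list was made, was the 1 gene past 2-fold, where 0.951% of all measured genes passed it upward and 0.503% downward. Nothing is read from the 7 others lying within it. The ligand genes Pgf, Vegfd, Vegfb and Vegfc had 0.30, 0.24, 0.14 and 0.10, with Vegfb at -0.59 on its other probe. The coreceptor genes Nrp1 and Nrp2 had 0.13 and -0.11, and Flt4, the receptor gene for Vegfc and Vegfd, had 0.23 with a spot error of 0.34. Flt1 and Kdr, the genes for the signalling receptors of Vegfa, did not stand well above background on the Na2S3 or the H2O array.

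Of 10 listed genes of the adrenomedullin family and its receptors 6 were measured, and their median log2 ratio was -0.08. Adm, for which the list was made, was the 1 gene past 2-fold upward, where 0.951% of all measured genes were, and nothing is read from the 5 others lying within it. Calcrl, which encodes the receptor for adrenomedullin, did not stand well above background on the Na2S3 or the H2O array. Neither did the peptide genes Adm2 and Calca nor the receptor gene Calcr. Of the genes for the accessory proteins that give Calcrl its ligand choice, Ramp3 had 0.01, Ramp1 -0.18 and Ramp2 -0.48, the last at signals of 49.3 in the Na2S3 array and 59.4 in the H2O array with a spot error of 0.34. The peptide gene Calcb had -0.34 with a spot error of 0.34, and Crcp, which encodes a component of the receptor complex, had 0.55 with a spot error of 0.09.

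A wider list of 47 HIF targets holds 9 of the members (all but Hif1a) and 38 further genes, of which 34 were measured. Of those 34, 1 (Ddit4) passed 2-fold upward, where 0.951% of all measured genes did. Downward 0 of 34 passed it, where 0.503% of all measured genes did. The median log2 ratio of the 34 was 0.0053, and 17 of them had a positive ratio, beside 45.8% of all measured genes. Ddit4, an mTORC1 inhibitor gene, had signals of 5039 in the Na2S3 array, against 1309.8 in the H2O array, a log2 ratio of 1.74, and its other probe gave 1.62.

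A further 3 of the 34 genes were at least 1.5-fold but not 2-fold higher. Bhlhe40, a transcriptional repressor gene, had 1215 in the Na2S3 array, against 550.4 in the H2O array, a log2 ratio of 0.93. Hk2, an inducible hexokinase gene, had 854 in the Na2S3 array, against 401 in the H2O array, a log2 ratio of 0.88. Pfkfb3, which encodes an activator of glycolysis, had 913 in the Na2S3 array, against 519 in the H2O array. Its log2 ratio was 0.61, and 0.55 with normexp, which is under 1.5-fold. In all, 4 of 34 were at least 1.5-fold higher, where 2.86% of all measured genes were, and 0 of 34 were at least 1.5-fold lower, where 2.47% of all measured genes were. The list was written with earlier results of these arrays known, so these shares stand as a description. At their brightest probes the other 30 of the 34 lay within 1.5-fold. Slc2a3 had 0.22 at its brightest probe and 0.79 at its other probe, which is past 1.5-fold. The lowest ratios among the 34 were those of Fut11 (-0.54), Hk1 (-0.54) and Angptl4 (-0.53), with spot errors of 0.19, 0.10 and 0.34. Angptl4 was dim, with 25.1 in the Na2S3 array, against 31.5 in the H2O array. With normexp the ratios of Fut11, Hk1 and Angptl4 were -0.39, -0.48 and -0.30. Car12, Slc16a3, Epo and Stc2 did not stand well above background on the Na2S3 or the H2O array.

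**Figure D4:**
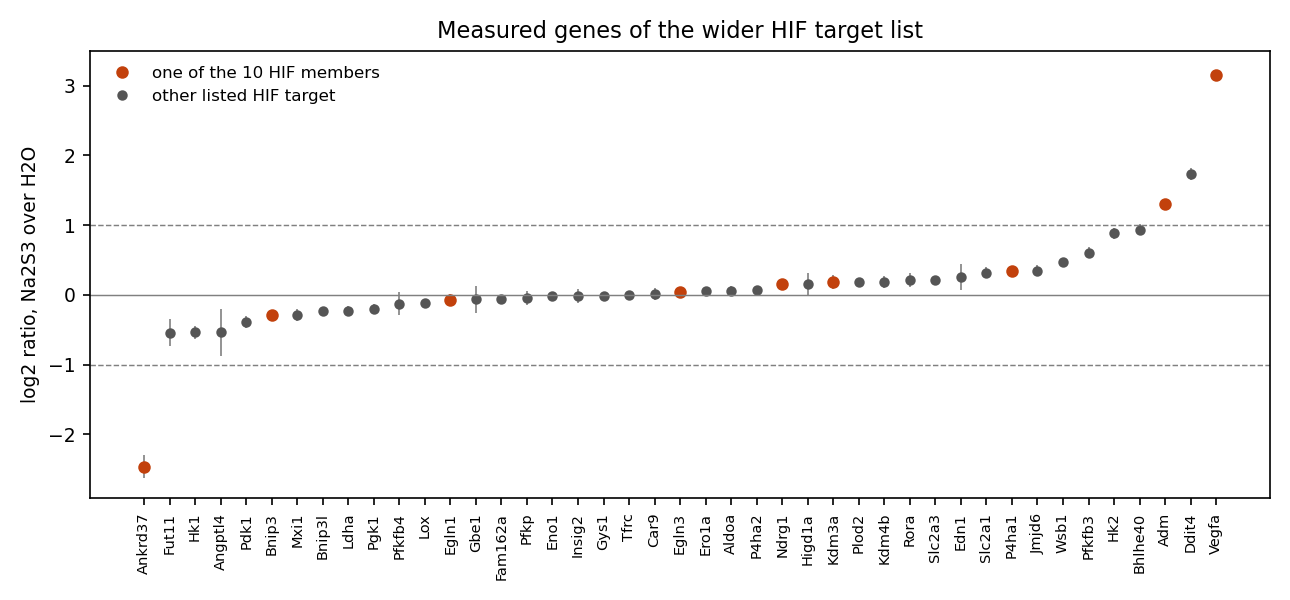
Log2 ratio of Na2S3 over H2O (vertical axis) for the 43 measured genes of the wider HIF target list in order of ratio, with bars for the spot error and dashed lines at 2-fold. Each gene is shown at its brightest probe. Vegfa, Ddit4 and Adm lie above the upper line, Ankrd37 lies below the lower one, and 36 of the 43 lie within 1.5-fold.

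Start-site sequence of the members was compared for the core of the hypoxia response element, read as ACGTG or GCGTG on either strand. RefSeq windows of the GRCr8 assembly, from 250 bases before to 50 bases after the start of the gene, were matched by symbol for 9 of the 10 members, all but Ndrg1. One or other motif occurred in 41.6% of 33469 such windows, with ACGTG in 19.3% and GCGTG in 29.7%. The 9 members have 11 windows, because Vegfa and Kdm3a have 2 each, and 6 of the 11 held one or other motif. Those were the windows of Ankrd37, Hif1a, Egln1, Bnip3 and P4ha1 and 1 of the windows of Kdm3a. The windows of Vegfa, Adm and Egln3 held neither. A match is a run of letters and not a binding site, and its absence says only that these letters are not in this window.

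The windows of the 3 members past 2-fold and of Bnip3 are given 5′ to 3′ in the direction of transcription, with each motif match in capitals. They lie at chr9:22452604-22452903 (Vegfa, plus strand), chr1:174179950-174180249 (Adm, plus strand), chr16:53001257-53001556 (Ankrd37, plus strand) and chr1:203154913-203155212 (Bnip3, minus strand). Vegfa has another annotated start, whose window held no match either.
Vegfa window: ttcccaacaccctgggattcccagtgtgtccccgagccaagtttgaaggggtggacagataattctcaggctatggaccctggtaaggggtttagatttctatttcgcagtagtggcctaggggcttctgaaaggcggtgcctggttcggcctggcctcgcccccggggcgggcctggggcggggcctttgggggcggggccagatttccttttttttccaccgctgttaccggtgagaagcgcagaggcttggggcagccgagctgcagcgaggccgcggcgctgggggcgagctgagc
Adm window: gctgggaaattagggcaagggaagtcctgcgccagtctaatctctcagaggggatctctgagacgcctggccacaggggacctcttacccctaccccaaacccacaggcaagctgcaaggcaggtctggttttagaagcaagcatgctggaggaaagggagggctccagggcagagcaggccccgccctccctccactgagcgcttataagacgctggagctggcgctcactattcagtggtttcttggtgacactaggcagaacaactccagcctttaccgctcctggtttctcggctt
Ankrd37 window: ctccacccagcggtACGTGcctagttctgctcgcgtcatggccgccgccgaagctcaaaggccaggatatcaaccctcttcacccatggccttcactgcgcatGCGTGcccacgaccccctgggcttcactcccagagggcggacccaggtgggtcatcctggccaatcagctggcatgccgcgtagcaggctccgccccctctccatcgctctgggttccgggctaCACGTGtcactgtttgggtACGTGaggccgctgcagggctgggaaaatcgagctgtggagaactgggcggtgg
Bnip3 window: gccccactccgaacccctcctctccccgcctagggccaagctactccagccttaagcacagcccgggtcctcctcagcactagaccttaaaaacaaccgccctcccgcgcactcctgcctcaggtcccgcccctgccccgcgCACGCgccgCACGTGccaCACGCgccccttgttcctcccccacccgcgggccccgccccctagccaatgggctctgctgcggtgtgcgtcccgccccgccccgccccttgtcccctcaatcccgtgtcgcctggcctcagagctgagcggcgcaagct
Ankrd37 held 4 matches to ACGTG and 1 to GCGTG, the most of any member window. A pair of its ACGTG matches overlap, because the run reads as ACGTG on both strands. Bnip3 held 2 matches to ACGTG, which overlap in the same way, and 2 to GCGTG. Hif1a and P4ha1 held 3 matches each and Egln1 held 2. Kdm3a held 1, in the second of its annotated windows.

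**Figure D5:**
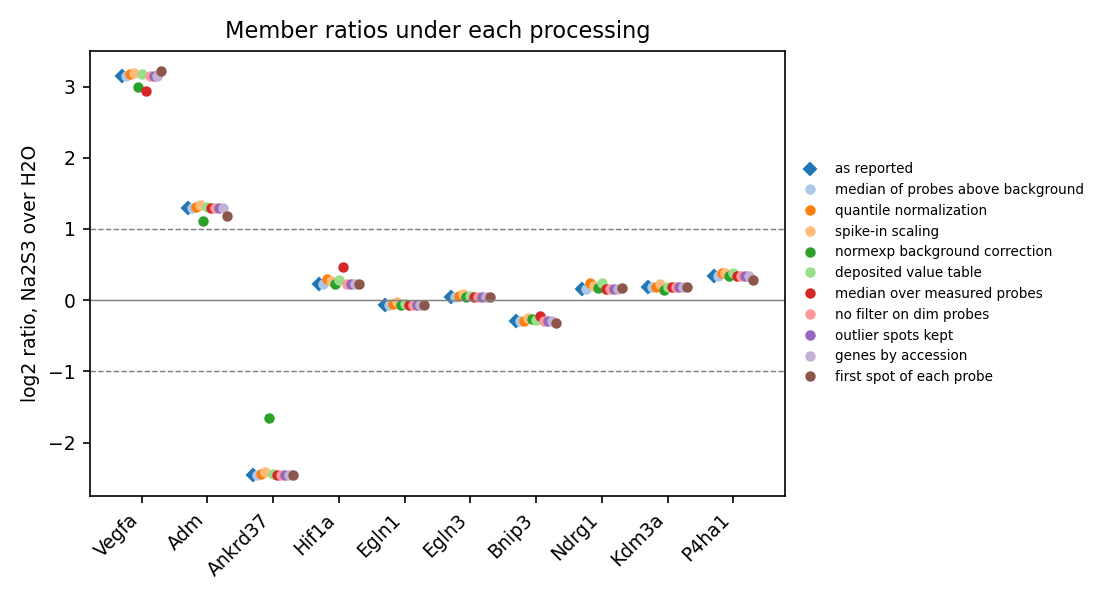
Log2 ratio of Na2S3 over H2O (vertical axis) for each of the 10 members as reported (diamonds) and under 10 other ways of processing (circles), with dashed lines at 2-fold. Each member kept its sign under all of them, though several cannot move a member with 1 probe of 1 spot, such as Ankrd37. Vegfa ran from 2.94 to 3.22, Adm from 1.12 to 1.34, and Ankrd37 moved from -2.46 to -1.65 with normexp.

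Markers of the labelled cell type were present in part. Of 8 epithelial markers, Krt8, Krt18, Krt19, Cdh1 and Cdx1 were measured, while Epcam, Cdx2 and Vil1 did not stand well above background on the Na2S3 or the H2O array. The measured epithelial markers ran from 158 (Krt18) to 18283 (Krt8) in the Na2S3 array, against 142 to 15892 in the H2O array. Krt19 had 251 in the Na2S3 array, against 215 in the H2O array. Cdh1 had 16264 in the Na2S3 array, against 14703 in the H2O array, a log2 ratio of -0.06 after scaling. Of 8 fibroblast markers, Col1a1, Col1a2, Col3a1, Dcn and Thy1 were measured, and Lum, Pdgfra and Pdgfrb did not stand well above background on either. The dimmest of these, Thy1, had 117 in the Na2S3 array, against 128 in the H2O array. The brightest, Col3a1, had 108685 in the Na2S3 array, against 91981 in the H2O array. Col1a1, Col1a2 and Dcn lay between them and were brighter than Cdh1 on both arrays. Levels are not comparable between probes, so this order of brightness is not an order of expression. Of 6 endothelial markers Cdh5, Tek and Vwf were measured, and Pecam1, Kdr and Esam were not well above background. Of 6 immune markers Ptprc, Cd68 and Cd14 were measured, Cd3e and Itgam were not well above background, and Cd79a matched no probe. Over the 16 measured markers of epithelium, fibroblasts, endothelium and immune cells, log2 ratios ran from -0.43 to 0.07 and 0 passed 1.5-fold, near the shares of 2.86% upward and 2.47% downward over all measured genes.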

How the data were processed

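Total RNA was labelled with Cy3 and hybridised to 1 array per group, and groups were taken from the treatment label. The scanner files hold linear spot intensity values, background-subtracted and detrended within the array by Agilent Feature Extraction 10.7.1.1, per the file headers (the submitters' processing notes name 9.5.1.1), with no step that makes arrays comparable. The deposited value table also holds intensity values (median 19.3 in both the Na2S3 and the H2O column), brought to shared quartiles between arrays by a method not given in the sources used here. It is linear, not centred, and gives all 14 member probes the sign of the scanner files. Like quantile normalization of the scanner values, it left 117 genes at least 2-fold higher and 46 lower.

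Spots flagged as outliers were left out of the mean log2 processed signal of a probe. From it the 75th percentile of that array, taken over non-control probes, was subtracted. A gene is represented by its brightest probe well above background (over 50% of its spots) on both arrays. Names are those of the GeneName column, and listed genes were also matched through RefSeq accessions and unambiguous synonyms (Vegfd is Figf, Elob Tceb2, Eloc Tceb1 and Ero1a Ero1l in the files). The accession of 13 of 14 member probes gives the same symbol, and Egln1 rests on the file's name. A gene is called when its log2 ratio reaches 1 in size. For a probe above background in the Na2S3 array alone, the fold given is its scaled signal there over a stand-in H2O signal. The stand-in is the lowest scaled signal well above background in the H2O array (18.3 units) or the probe's own, whichever is higher. Spot errors pool repeat probes with at least 8 spots in bins of the mean log2 signal of the 2 arrays. The members, lists and rules were chosen with earlier results of these data known. Named genes are the 10 members, all genes of the 3 family lists, wider targets past 1.5-fold or not above background, and the 3 nearest to Vegfa and to Ankrd37. A gene of the wider list is not reported here and was left out of its counts. Other wider targets named were chosen after their values were seen. Alternatives were other scalings, normexp (limma 3.58.1, offset 50), the deposited table, other probe and spot choices and naming by accession. The scaling and the 2-fold call were tested on simulated data, with less noise than dim spots have here. The choice among probes, the outlier spots and a background filter differing between arrays were not part of that test.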

Additional observations from a re-analysis of the deposited data

How the results depend on the processing

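All 10 members kept the sign of their log2 ratio under the 10 alternatives, and the counts of 2 members at least 2-fold higher and 1 lower were the same under each. Other choices of probe, spot, filter or name cannot move a member with 1 probe of 1 spot except through the scaling. Ankrd37, Egln1 and Kdm3a are such members. The deposited table gave nearly the values of quantile normalization, so these alternatives are not separate checks. Normexp background correction gave 2.99 for Vegfa, 1.12 for Adm and -1.65 for Ankrd37, and left 58 genes of the whole array at least 2-fold higher and 22 lower, against 104 and 55 as reported. With no filter on dim probes these counts were 586 and 724, so the share of calls that were higher was 44.7% in place of 65.4%. The median over probes gave 2.94 for Vegfa, and spike-in scaling gave 1.34 for Adm. Using the first spot of each probe, chosen after seeing the data, gave 3.22 for Vegfa and 1.18 for Adm. The share of higher calls was 71.8% in the deposited table as well as after quantile normalization, and 72.5% after normexp. The median of the HIF members ran from 0.16 to 0.22, and that of the wider target list from 0.02 to 0.09. The cause of these shifts was not tested. No paired analysis was possible because each group is 1 array. Signal over background limits the ratios of Ankrd37 and the middle Vegfa probe, and having 1 array per group limits the precision of every value.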
